A study of Drosophila melanogaster with 2 samples.

Results

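A set of 7 genes of astrocytes and of transmitter recycling was followed in adult heads of Drosophila melanogaster, out of 12083 genes listed in either of 2 libraries. They are alrm, Gat, Eaat1, Eaat2, Gs2, Inx2 and repo, and all 7 were found by FlyBase number in both libraries. Flies of the w1118 strain, which has white eyes, were kept for 6 days on a control diet or on the control diet plus sucralose, a sweet compound with almost no usable energy. They were 4 to 7 days old at the start and 10 to 14 days old at collection, and RNA came from whole heads. Each diet has 1 library, of 10.3 M reads for the control diet and 10.4 M for the sucralose diet. With no replicates there is no spread to test against, and every difference below compares these 2 libraries, not the diets. The labels give neither sex nor the time of day of collection. The genes were chosen by name with their read counts in both libraries already known, so their differences are a description and support nothing beyond themselves. Reads of all 7 were present in both libraries, among them those of the defining astrocyte gene alrm and of the pan-glial gene repo.

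Astrocytes of the fly brain send fine processes into the synaptic neuropil, where they take up transmitter released by neurons. Glutamate enters glia through sodium-driven carriers, is joined to ammonia by glutamine synthetase, and returns to neurons as glutamine. GABA, the main inhibitory transmitter, is taken up by its own sodium-driven carrier and broken down or re-used. Innexins, the gap junction proteins of invertebrates, couple glial cells to one another. The homeodomain factor Repo is present in the nuclei of almost all glia outside the midline.

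Of the 7 genes, 5 were at least 1.5-fold lower in the sucralose library, none was as much higher, and 2 lay between. Of the 8889 genes whose reads summed to 50 or more, 4.49% were lower by as much and 2.4% higher by as much. Since the genes were chosen on this contrast, nothing is read from the gap between these shares. The count was 4 with upper quartile scaling and without the 20 most abundant genes, where Eaat1 lay short of the mark. It was 3 under 3 other scalings chosen after seeing the data, in which Eaat1 and Gs2 lay short of it. The marker of astrocytes, alrm, and the GABA carrier gene, Gat, were each 2.74-fold lower, while the pan-glial gene repo differed by less than its counting error. Eaat1 and Eaat2 encode carriers of the same family. Eaat1 was 1.51-fold lower, while Eaat2 differed little (1.08-fold higher, a fold exceeded by 2628 of the 8889 genes). The fold changes are ratios of scaled read counts, and the 95% intervals beside them are exact binomial intervals that cover counting error only. Where a pair of values is given, the control library comes first. Whole-head RNA cannot tell fewer cells of a type from less RNA per cell.

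Within each library, levels were compared as RPKM, the deposited reads scaled by gene model length and library total, with exact Poisson 95% intervals for counting error. Gs2 was the most abundant of the 7 genes per length, at 807.5 RPKM in the control library (794.9 to 820.3) and 528.1 RPKM in the sucralose library (518.0 to 538.4). It stood at place 69 of 11521 genes listed in the control library and at place 144 of 11588 in the sucralose library. Eaat2, at 212.4 and 230.9 RPKM, and Eaat1, at 187.2 and 124.6 RPKM, followed in both. The next pair, alrm and Gat, lay close together in each library. Their levels were 76.5 RPKM (72.5 to 80.6) and 70.0 RPKM (67.1 to 73.1) in the control library, with intervals that overlap narrowly. In the sucralose library they were 28.0 RPKM (25.6 to 30.5) and 25.6 RPKM (23.9 to 27.5), with intervals that also overlap. The last places changed hands, because Inx2 was above repo in the control library and level with it in the sucralose library. Inx2 stood at 36.6 RPKM (35.0 to 38.3) against 20.5 RPKM (19.0 to 22.2) for repo in the control library, and at 19.66 RPKM against 19.70 RPKM in the sucralose library.

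**Figure D1:**
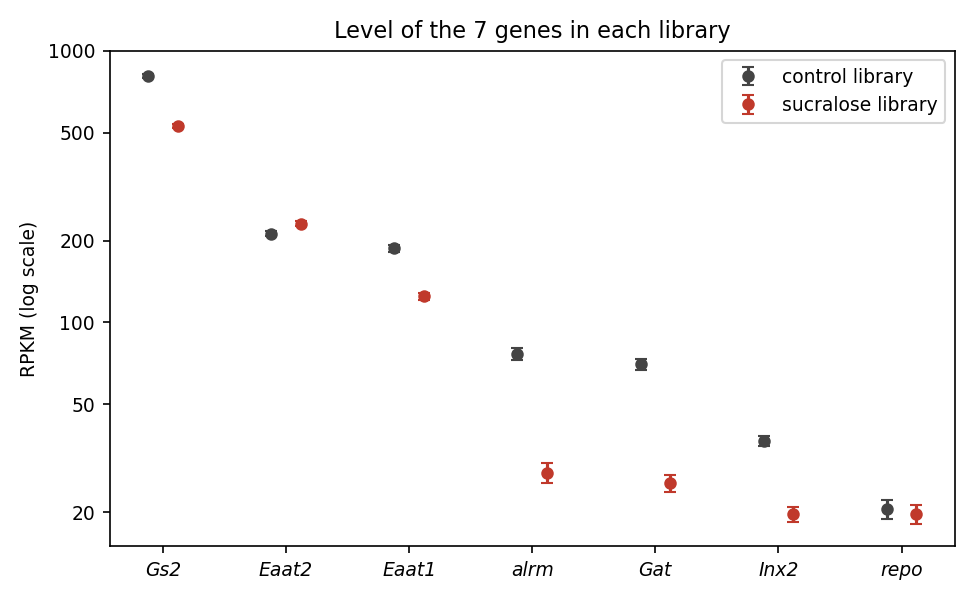
Level of each of the 7 genes in RPKM (log scale) in the control library (grey) and the sucralose library (red), with exact Poisson 95% intervals, 1 library per diet. Eaat2 and repo sit at similar heights in both libraries, whereas alrm stands at 76.5 and 28.0 RPKM and Gat at 70.0 and 25.6 RPKM.

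Of the carrier genes among the 7, Gat was lower by the widest margin. It encodes the plasma membrane GABA carrier found in astrocytes. Its 2082 control reads stood against 774 under sucralose (2.74-fold lower, 2.52 to 2.98). Among the 8889 genes with at least 50 summed reads, 58 had a lower fold than Gat. With a floor of 1000 summed reads, chosen after seeing the data, 7 of 3788 genes did. Reads covered 99.3% of the bases of its gene model on the control diet and 99.2% on sucralose, nearly the whole model in both. Gat lies on chromosome 4, and 9.98% of its exon bases are shared with an annotated transposon copy in the BDGP6.54 annotation.

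Eaat1, the glutamate carrier of astrocytes and other glia, had 5789 control reads and 3914 sucralose reads (1.51-fold lower, 1.45 to 1.57). Its interval includes 1.5, so counting error alone leaves it on either side of that mark. Eaat2, which carries aspartate and taurine in preference to glutamate, had 7383 and 8153 reads (1.08-fold higher, 1.05 to 1.12). The pair thus stood differently to each other in the 2 libraries, a comparison that needs no scaling between them. Eaat1 had 0.784 reads per read of Eaat2 on the control diet and 0.480 on sucralose, 1.63-fold lower (1.55 to 1.72, counting error). Per length, Eaat1 made up 46.9% of the summed RPKM of both genes on the control diet and 35.1% on sucralose. Their summed level was 399.6 RPKM on the control diet and 355.6 RPKM on sucralose. Both genes lie on arm 2L, and neither shares exon bases with another gene.

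Gs2 encodes the cytosolic glutamine synthetase, which turns the glutamate taken up by glia into glutamine. It had 15598 reads on the control diet and 10360 on sucralose (1.53-fold lower, 1.497 to 1.57), and its interval, like that of Eaat1, includes 1.5. Gs1, the mitochondrial glutamine synthetase gene, had 1904 and 2018 reads (1.04-fold higher, 0.976 to 1.11). The enzymes therefore differed between the libraries by unequal amounts, and Gs2 still made up most of the total in both. Its part of the summed RPKM of both synthetases was 91.3% on the control diet and 86.8% on sucralose. Gs2 kept close to Eaat1, the step before it, with 2.69 reads per read of Eaat1 on the control diet and 2.65 on sucralose (quotient 0.982, 0.937 to 1.03).

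Inx2, an innexin that couples glia and many other cells, had 1980 reads on the control diet and 1080 on sucralose (1.87-fold lower, 1.73 to 2.01). Coverage of its gene model, 86.3% and 81.4%, was the lowest of the 7 genes. Its usual partner in surface glia, ogre (Inx1), had 1645 and 1204 reads (1.39-fold lower, 1.29 to 1.5). Both innexin genes were thus lower, Inx2 more so, with 1.20 reads per read of ogre on the control diet and 0.897 on sucralose (1.34-fold lower, 1.21 to 1.49).

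alrm encodes a leucine-rich repeat protein of unknown function whose promoter is the standard tool for labelling fly astrocytes. Its reads numbered 1365 on the control diet and 507 on sucralose (2.74-fold lower, 2.48 to 3.04). A lower fold was seen in 57 of the 8889 genes with at least 50 summed reads. With the floor of 1000 summed reads, chosen after seeing the data, it was seen in 6 of 3788. The ratio of alrm to Gat differed by less than counting error, at 0.656 control and 0.655 sucralose reads of alrm per read of Gat (quotient 0.999, 0.876 to 1.14). These genes lie on different chromosomes, 3R and 4, and alrm shares no exon bases with another gene.

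repo, the glial fate factor, had 631 control reads and 615 sucralose reads (0.956-fold, 0.854 to 1.07). This interval lies above the folds of the 5 lower genes. A gene on the opposite strand shares 6.11% of its exon bases, and whether the counting used strand is not given in the sources used here.

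**Figure D2:**
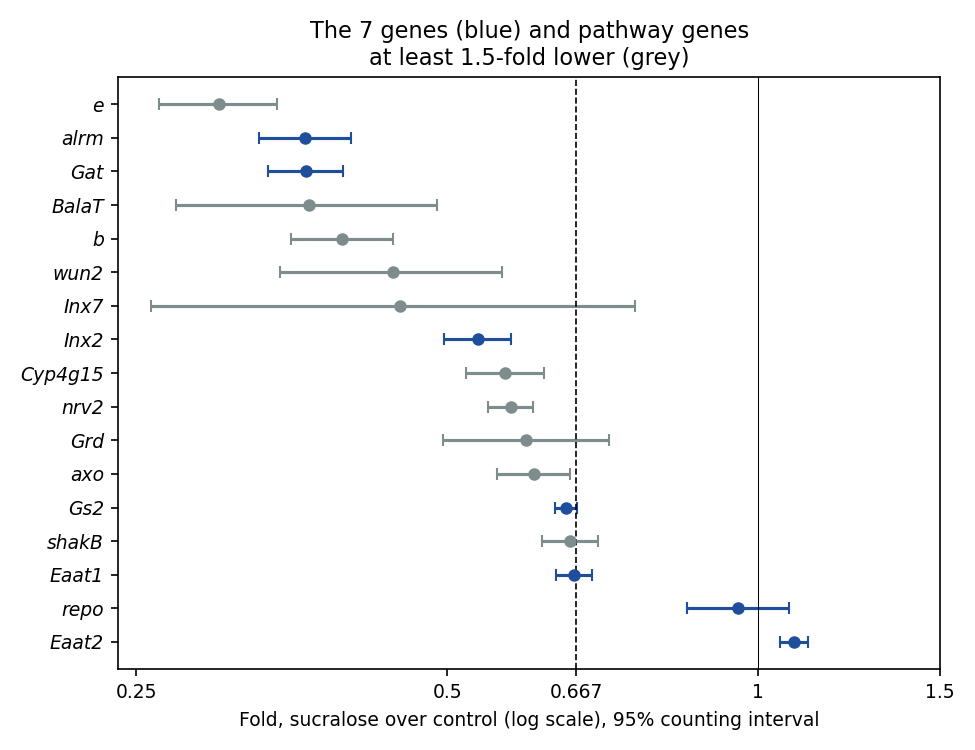
Fold of the sucralose library over the control library (log scale, with exact binomial 95% counting intervals) for the 7 genes in blue and for pathway and glial genes at least 1.5-fold lower in grey, 1 library per diet. Grey genes were drawn only where they were lower by that much. alrm and Gat lie beside e, BalaT and b near the top, Eaat1 and Gs2 lie on the dashed 1.5-fold line, and repo and Eaat2 lie near 1.

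Set against repo in the same library, which again needs no scaling, the other 6 genes differed by unequal amounts. Reads of alrm per read of repo were 2.16 on the control diet and 0.824 on sucralose (2.62-fold lower, 2.26 to 3.05). Gat had 3.30 and 1.26 (2.62-fold lower, 2.28 to 3.01). alrm and Gat were thus lower by nearly equal factors. Inx2 had 3.14 and 1.76 reads per read of repo (1.79-fold lower, 1.56 to 2.04). Gs2 had 24.7 and 16.8 (1.47-fold lower, 1.31 to 1.64), and Eaat1 had 9.17 and 6.36 (1.44-fold lower, 1.28 to 1.62). Eaat2 alone stood higher against repo, at 11.7 and 13.3 reads (1.13-fold higher, 1.01 to 1.27). Together the 7 genes took 34828 reads (0.339% of the control library) and 25403 reads (0.244% of the sucralose library).

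**Figure D3:**
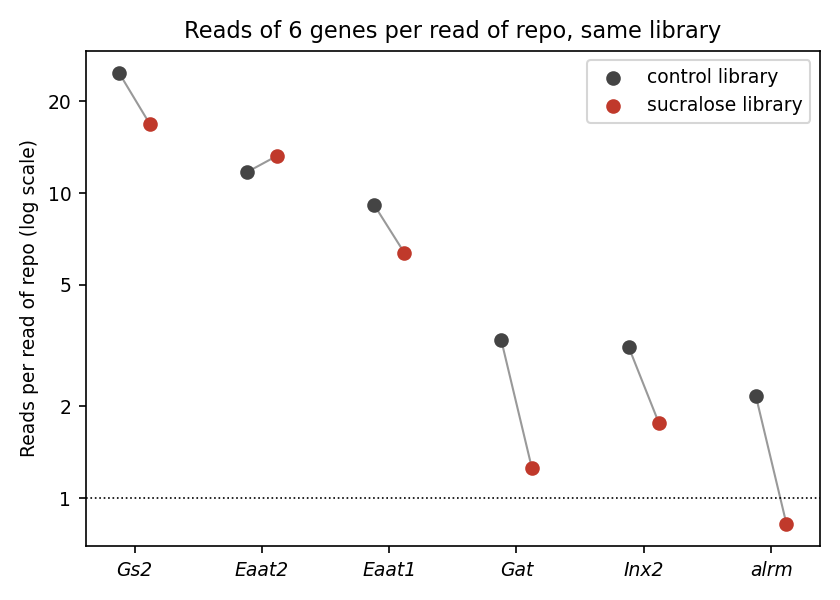
Reads of each of 6 genes per read of repo (log scale) in the control library (grey) and the sucralose library (red), from the deposited counts with no scaling, 1 library per diet. Lines for alrm and Gat are the steepest, from 2.16 to 0.824 and from 3.30 to 1.26, and Eaat2 has the only line that goes up.

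Across all 8889 genes over the read floor, the median log2 difference of (CPM + 0.5), sucralose minus control, was -0.0016, and over the 7 genes it was -0.62. On that scale alrm and Gat both stood at -1.45, Inx2 at -0.90, Gs2 at -0.62, Eaat1 at -0.59, repo at -0.06 and Eaat2 at 0.12. At the 2-fold mark, where 1.61% of all genes were lower and 0.427% higher, 2 of the 7 genes were lower. Of the 3788 genes with 1000 summed reads or more, 0.634% were lower by 2-fold or more. At the 2.5-fold mark, which alrm and Gat also passed, the shares were 0.855% of all genes over 50 reads and 0.37% of those over 1000.

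**Figure D4:**
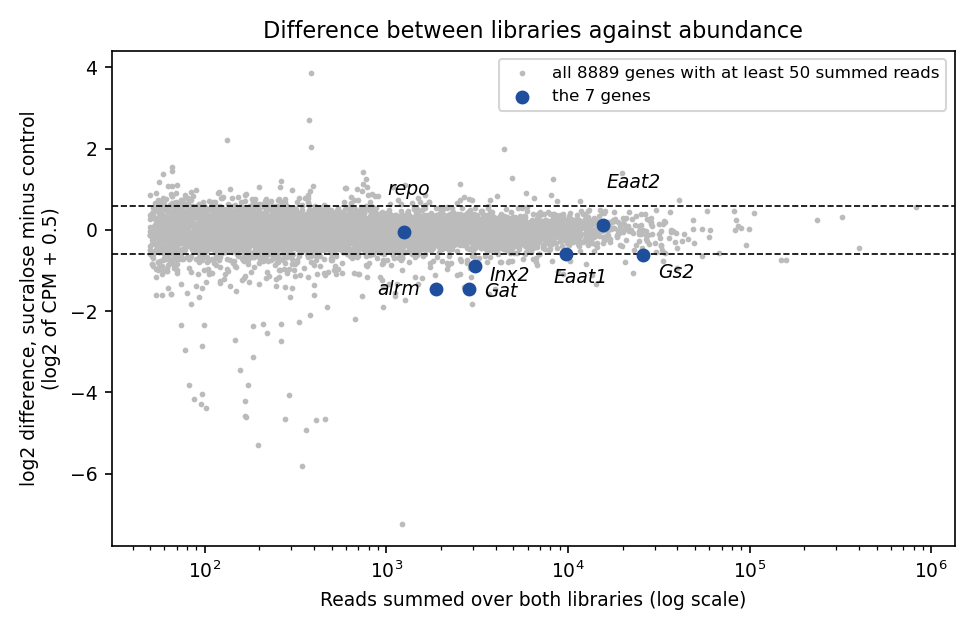
Log2 difference of (CPM + 0.5), sucralose minus control, against reads summed over both libraries (log scale), for the 7 genes in blue and all 8889 genes with at least 50 summed reads in grey. Dashed lines mark 1.5-fold either way, and alrm and Gat both lie at -1.45, below the lower line.

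The genes with the difference nearest to the mean of alrm and Gat, a log2 difference of -1.45 over these 2 libraries, were sought among genes with at least 200 summed reads. The closest was CG9394, with 2888 reads on the control diet and 1076 on sucralose (2.74-fold lower, 2.55 to 2.94), which differed from that mean by 0.00047 on the log2 scale. The other 4 of the 5 nearest were CG42821, CG7409, the glycosyltransferase gene Ugt301D1 and the multicopper oxidase gene Mco1. They were between 2.67-fold and 2.79-fold lower and came within 0.052 of the mean on the log2 scale. With 2 libraries, likeness means only a similar fold.

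Other astrocyte genes were uneven. Of 8 listed, 6 had at least 50 summed reads, of which 2 were at least 1.5-fold lower, beside 4.49% of all genes, and 4 lay between. All 6 were below 0, as were 4481 of all 8889 genes. Their median log2 difference was -0.35 against -0.0016 over all genes, and the median was -0.19 with no filter on reads. One is e (ebony), which joins beta-alanine to histamine and dopamine in glia, with 973 and 298 reads (3.33-fold lower, 2.92 to 3.802). The other is wun2, a lipid phosphate phosphatase gene, with 215 and 97 reads (2.26-fold lower, 1.77 to 2.90). The most abundant, the TRP channel gene wtrw, had 2425 and 2262 reads (1.09-fold lower, 1.03 to 1.16), and the counting interval of Oct-TyrR, an amine receptor gene named after its value was seen, includes no difference (1.11-fold lower, 0.931 to 1.32).

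Enzymes of glutamate and GABA metabolism mostly lay within 1.5-fold, as did 8277 of all 8889 genes over the read floor. Of 11 listed, 1 was at least 1.5-fold lower, beside 4.49% of all genes. None was as much higher and 10 lay between, with a median log2 difference of -0.27. The lower one was b (black), a decarboxylase gene kept on this list though its product makes beta-alanine. It had 1067 and 430 reads (2.53-fold lower, 2.26 to 2.84). Gad1, which makes GABA in neurons and was the most abundant of the list, had 7189 and 5691 reads (1.29-fold lower, 1.24 to 1.33). The carrier Gat was thus lower than the enzyme by a wider margin. Gat had 0.290 reads per read of Gad1 on the control diet and 0.136 on sucralose (2.13-fold lower, 1.95 to 2.33). Against VGAT, which loads GABA into synaptic vesicles, Gat had 1.70 and 0.765 reads (2.22-fold lower, 1.97 to 2.49). Eaat1 against VGlut, which loads glutamate into vesicles, had 1.71 and 1.36 reads (1.26-fold lower, 1.18 to 1.34).

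Vesicular loading and receptor genes for these transmitters were lower, mostly by less than 1.5-fold. All 12 were below 0, as were 4481 of all 8889 genes. Their median log2 difference was -0.21 against -0.0016 over all genes. Of the 12, 1 was at least 1.5-fold lower, beside 4.49% of all genes. That was Grd, a ligand-gated chloride channel gene of the GABA receptor family, with 311 and 189 reads (1.68-fold lower, 1.40 to 2.02), of whose exon bases 27.5% are shared with a gene on the opposite strand. The most abundant, the GABA receptor gene Rdl, was 1.05-fold lower (1.01 to 1.10).

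Uptake genes for other transmitters differed in direction, with 6 below 0 and 2 above. Of 9 listed, 8 were matched, with a median log2 difference of -0.14. Among these 8, 1 was at least 1.5-fold lower, beside 4.49% of all genes, and 7 lay between. BalaT, which encodes a beta-alanine carrier, had 179 and 67 reads (2.72-fold lower, 2.05 to 3.66), but 98.5% of its exon bases are shared with an antisense RNA gene. CarT, a carcinine carrier gene of photoreceptors and the most abundant of the list, had 929 and 1382 reads (1.46-fold higher, 1.34 to 1.59).

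The sodium pump keeps up the gradient that drives Gat and the Eaat carriers. All 6 genes of the pump and of cation-chloride cotransport were below 0, as were 4481 of all 8889 genes. Their median log2 difference was -0.44. Of the 6, 5 lay within 1.5-fold and 1 was at least 1.5-fold lower, beside 4.49% of all genes. That was nrv2, a beta subunit gene prominent in glia, with 4211 and 2472 reads (1.74-fold lower, 1.65 to 1.83). The catalytic subunit gene Atpalpha, the most abundant, had 53220 and 41810 reads (1.30-fold lower, 1.28 to 1.31). Of the 3 other innexin genes over the read floor, 2 lay past the 1.5-fold mark on the lower side, beside 4.49% of all genes. shakB was 1.52-fold lower (1.43 to 1.62) and Inx7, with 48 and 22 reads, was 2.22-fold lower (1.32 to 3.87). Both intervals include 1.5, so counting error alone leaves these 2 genes on either side of that mark. The median log2 difference of the 3 genes was -0.60, and -0.46 with a pseudocount of 5 CPM.

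Glial classes other than astrocytes were uneven. For comparison, 4.49% of all genes were at least 1.5-fold lower, 2.4% as much higher, and 4481 of 8889 were below 0. None of 6 surface glia genes of the blood-brain barrier was past 1.5-fold, their median log2 difference was -0.08, and the most abundant, the trehalose carrier gene Tret1-1, was 1.14-fold higher (1.08 to 1.20). Of 2 matched cortex glia genes, Cyp4g15 had 1428 and 828 reads (1.76-fold lower, 1.61 to 1.92), and wrapper, named after its value was seen, had 512 and 563 reads (1.08-fold higher, 0.955 to 1.22). Of 4 ensheathing glia genes, 2 were below 0 and 2 above, with a median of -0.18. axo was 1.65-fold lower (1.52 to 1.79) and the most abundant, hoe1, 1.37-fold lower (1.32 to 1.43), while drpr and Ced-6, named after their values were seen, were each 1.07-fold higher. Of the 5 glial fate genes, 3 had at least 50 summed reads and none was past 1.5-fold. The most abundant of these, ttk, was 1.03-fold lower (0.951 to 1.12), close to repo. Whether the glial classes differ from one another was not tested.

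**Figure D5:**
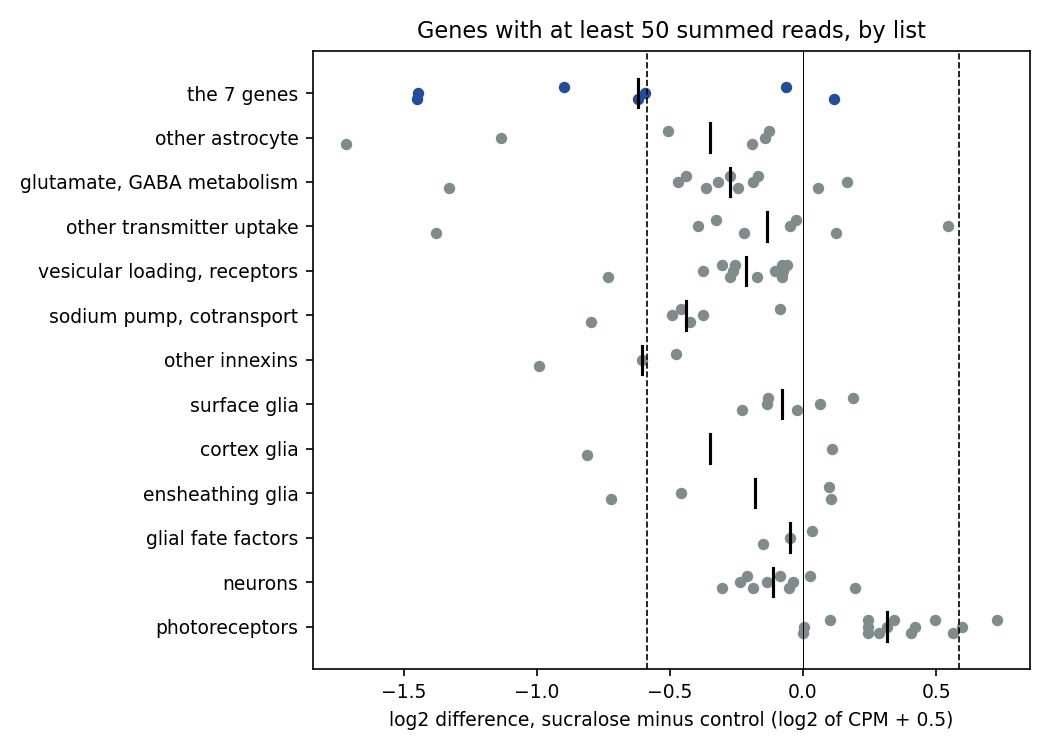
Log2 difference of (CPM + 0.5), sucralose minus control, of every gene with at least 50 summed reads in 13 lists (points), with the list median (black bar) and dashed lines at 1.5-fold either way. The 7 genes have a median of -0.62, surface glia -0.08, neurons -0.11 and photoreceptors 0.32.

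Markers of other cells also differed between these libraries. Their counts stand beside 4.49% of all genes at least 1.5-fold lower and 2.4% as much higher. The median log2 difference was -0.11 over 10 neuronal genes, none past 1.5-fold, and 0.32 over 15 photoreceptor genes, 2 of them at least 1.5-fold higher. Summed photoreceptor reads took 7.72% of the control library and 10.3% of the sucralose library. The most abundant of each list were nSyb (1.15-fold higher, 1.12 to 1.17) and the rhodopsin gene ninaE (1.48-fold higher, 1.47 to 1.48). For muscle the median was -0.58, 6 of 12 genes were lower by 1.5-fold or more, and the myosin gene Mhc had 20219 and 13981 reads. All 7 gut protease and lysozyme genes over the floor were lower by as much (median -4.65), with 448 and 13 reads for Jon65Aiv. Fat body genes had a median of -0.45, with 1 of 3 lower by as much and 48766 and 50501 reads for the lipoprotein gene apolpp. Hemocyte genes had a median of -0.08, with 2 of 9 lower and 1 higher by as much and 3080 and 3375 reads for Ppn. Of 7 clock genes, listed after the values were seen, 1 was at least 1.5-fold lower, 2 were as much higher and 4 lay between, with a median of 0.04. The lower one was tim, with 8049 and 4573 reads, and the higher ones were Clk, with 305 and 559, and vri, with 3238 and 5411. The most abundant, Pdp1, was 1.44-fold lower, and per was 1.03-fold higher (0.960 to 1.10). The part of these differences, and of collection time, in the values of the 7 genes was not tested.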

How the data were processed

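Total RNA of heads was extracted with Trizol and sequenced with standard Illumina libraries, per the labels' protocols. The authors deposited 1 table per library. Per the file headers, it holds raw counts of unique reads for each gene, the gene model length in bases, the coverage as a percent of that length and RPKM. Recomputing RPKM from the deposited counts gave the same values. Not given in the sources used here are the aligner, genome build, annotation and strandedness. Of 12083 genes, 496 had no symbol in the name table. Counts were scaled with TMM (edgeR 4.0.16, R 4.3.3), and log2 differences are of CPM + 0.5. Python 3.11.15, pandas 2.3.3, numpy 2.4.6, SciPy 1.17.1 and matplotlib 3.10.9 did the rest. Fold intervals are exact conditional binomial (Clopper-Pearson) 95% intervals, and intervals of quotients within libraries use Poisson variances on the log scale. Without molecular identifiers, reads may repeat a molecule, and intervals cover counting error only. Folds and intervals were tested on simulated counts with Poisson error only, a test that cannot speak to variation between libraries.

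The 7 genes and all lists were chosen with earlier results of these data known. Of 142 listed entries, 131 matched a gene in either table. Those without a match, among them Inx3, Ntl and zyd, were not analysed here. Most of them have a current FlyBase number above any in the tables, and no list of older numbers was used, so their reads may stand under another number. The text names the 7 genes, each pathway or glial gene past 1.5-fold with at least 50 summed reads, the most abundant gene of each list, and the 5 genes nearest to alrm and Gat. Named outside that rule, after values were seen, were Gs1, ogre, VGAT, VGlut, wrapper, drpr, Ced-6, Oct-TyrR and the genes of 2 lists added then, the clock list and the beta-alanine and histamine list (from which t, Hdc, ort and HisCl1 are named). Exon overlap came from the BDGP6.54 annotation, whose coordinates were not used otherwise. No sequences were used here.

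Alternatives were 4 other scalings, pseudocounts of 0.1 and 5 CPM, ratios of RPKM, other filters on reads, and other fold marks. Chosen after seeing the data were 3 further scalings and a floor of 1000 reads.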

Additional observations from a re-analysis of the deposited data

How the results depend on the processing

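All 7 genes except repo kept the sign of their difference under every scaling, pseudocount and RPKM ratio tried, and repo, which was not past 1.5-fold, ranged from -0.06 to 0.05 on the log2 scale. alrm and Gat each ranged from -1.45 to -1.34. The count of 5 genes at least 1.5-fold lower was 4 with upper quartile scaling and 4 without the 20 most abundant genes, where Eaat1 was at -0.58 and -0.57. It was 3 with total counts without photoreceptor, gut and muscle genes, 3 when centred on neuronal genes, 3 when centred on surface glia genes, 3 where the counting interval had to lie past 1.5-fold, and 2 at the 2-fold mark. Eaat1 and Gs2 were the genes not counted where it was 3 or 2, with Inx2 as well at the 2-fold mark. Centring on neuronal genes moves the median of all genes to 0.11. It gave -0.48 for Eaat1, 0.23 for Eaat2, -0.51 for Gs2, -0.79 for Inx2 and -0.51 for the median of the 7 genes. Centring on surface glia genes gave -0.51 for Eaat1, 0.19 for Eaat2 and -0.54 for Gs2, and leaving out photoreceptor, gut and muscle genes gave -0.57 for Gs2. Of all genes, 12.3% were at least 1.5-fold lower with no filter and 2.40% with at least 1000 summed reads, and 10.9%, 1.21% and 0.818% were as much higher with no filter, 200 and 1000 reads. The causes were not tested. No paired analysis was possible because each diet has 1 library, so no library could be left out either. Depth limits the rarer genes, such as Inx7 and BalaT.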

Other observations

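The beta-alanine shuttle, by which glia of the lamina take up and return histamine released by photoreceptors, was listed after the values of b, e and BalaT were seen. Of its 8 genes, 3 were at least 1.5-fold lower in the sucralose library, beside 4.49% of all genes, and these were the genes already seen. Of these, e was 3.33-fold, BalaT 2.72-fold and b 2.53-fold lower, and which cells of the head their reads came from was not tested. BalaT had only 179 and 67 reads, and 98.5% of its exon bases are shared with an antisense RNA gene. Genes of the photoreceptor side were not lower, but since the list followed the values, nothing is read from this contrast. The hydrolase gene t (tan), which frees histamine from carcinine, had 2919 and 4050 reads (1.36-fold higher, 1.30 to 1.43), CarT was 1.46-fold higher, and Hdc, which makes histamine, had 1082 and 1235 reads (1.12-fold higher, 1.03 to 1.22). The histamine receptor genes ort (1.38-fold lower, 1.12 to 1.69) and HisCl1 (1.06-fold lower, 0.904 to 1.24) lay within 1.5-fold. Of 15 photoreceptor markers, 14 were above 0 in the same comparison (median log2 difference 0.32), beside 4408 of all 8889 genes. The part of these markers in the values was not tested.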
